A study of Mus musculus with 2 samples.

Results

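Keratin genes of the basal layer and the outer follicle wall were examined in epithelial cells of newborn mouse back skin: Krt5, Krt14, Krt15, Krt17, Krt75, Krt6a, Krt6b, Krt16, and Krt79. These 9 genes were chosen by symbol from the 32285 genes listed in the count files, and all 9 were listed. Single-cell RNA sequencing had been performed on tdTomato-positive cells sorted at postnatal day 1 from 1 WT library and 1 library labelled PADI4 cKO, in which Padi4 is deleted by K14-Cre from floxed alleles (Padi4 fl/fl). The labels give 1 protocol text for both libraries, so the alleles of the WT animals are known only as WT and, from the sort, as holding an active reporter. The tdTomato reporter is switched on by a Cre under the Krt14 promoter, so each sorted cell or its ancestor had Krt14 promoter activity, and the epidermis had been peeled from the dermis before the follicle-containing dermal fraction was dissociated. Back skin of both libraries came from animals of unstated number and sex, both in batch 1, and with 1 library per genotype there are no replicates, no test between genotypes, and no control for differences between animals or runs. All intervals below are 95% intervals that cover counting error only.

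Keratins form intermediate filaments as pairs of an acidic type I and a basic type II chain. Krt5 (type II) and Krt14 (type I) make the filament network of basal keratinocytes in the epidermis and the outer root sheath (ORS), and Krt15 (type I) accompanies them in basal cells and in the stem cell region of the hair follicle (HF). Krt17 (type I) is a keratin of the ORS and other appendage epithelium, Krt75 (type II) marks the companion layer, a single sheet of cells between the ORS and the inner root sheath (IRS), Krt6a and Krt6b (type II) and Krt16 (type I) are keratins of the companion layer, nail, and wounded or activated epidermis, and Krt79 (type II) is known from the infundibulum and the sebaceous duct. The type II members lie on chromosome 15 and the type I members on chromosome 11, all on the minus strand (GRCm38). Krt5 spans chr15:101707070-101712898 in 9 exons, Krt75 chr15:101563345-101573904 in 9 exons, Krt79 chr15:101929332-101940324 in 9 exons, and Krt14 chr11:100203162-100207548 in 8 exons.

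Promoter windows of Krt5, Krt75, and Krt79 are shown because these 3 type II genes lie within 1 gene cluster and yet had their highest levels in different epithelial groups (below). The sequences are those of RefSeq (GRCm38.p6), 300 bases on the minus strand from 250 bases before to 50 bases after the gene start, at chr15:101712856-101713155 (Krt5), chr15:101573855-101574154 (Krt75), and chr15:101940275-101940574 (Krt79), and capitals mark the letters ATAAAA on the coding strand.
Krt5: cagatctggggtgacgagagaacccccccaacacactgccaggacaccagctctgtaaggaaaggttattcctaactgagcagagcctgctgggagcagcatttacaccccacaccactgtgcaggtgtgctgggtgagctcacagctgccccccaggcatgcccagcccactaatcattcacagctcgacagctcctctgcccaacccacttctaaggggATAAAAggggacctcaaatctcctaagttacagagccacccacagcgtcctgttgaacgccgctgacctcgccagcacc
Krt75: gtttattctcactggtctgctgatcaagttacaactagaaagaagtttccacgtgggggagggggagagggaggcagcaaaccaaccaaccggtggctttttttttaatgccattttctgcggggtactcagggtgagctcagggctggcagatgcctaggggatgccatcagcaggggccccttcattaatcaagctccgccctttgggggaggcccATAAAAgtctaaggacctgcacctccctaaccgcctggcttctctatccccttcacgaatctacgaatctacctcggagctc
Krt79: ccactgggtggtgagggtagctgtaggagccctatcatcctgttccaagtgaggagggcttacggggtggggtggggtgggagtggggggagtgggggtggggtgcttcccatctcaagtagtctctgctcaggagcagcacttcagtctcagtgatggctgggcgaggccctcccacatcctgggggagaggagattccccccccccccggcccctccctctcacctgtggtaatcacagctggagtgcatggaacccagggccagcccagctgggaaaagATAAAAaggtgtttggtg
The run ATAAAA began 29 bases before the start of Krt5, 32 bases before that of Krt75, and 32 bases after the annotated start of Krt79. It was chosen after the sequences were read, is a variant of the TATAAA box with which it overlaps in TATAAAA, and stands on either strand in 18.4% of 32544 promoter windows of this length. None of these 3 windows held TATAAA on either strand, which 13.6% of all windows did, and, also on either strand, none held CCAAT (37.4%), GCCNNNGGC (16.7%), or TGANTCA (7.79%), whereas GGGCGG (35.9%) was in that of Krt75 only. These matches describe letters and not sites of binding.

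After filtering, 8069 droplets of the WT library and 7394 of the PADI4 cKO library were kept, with 7996 and 7358 epithelial cells at a median of 14692.5 and 16206.5 unique molecular identifiers (UMIs) per cell. Cells were clustered without any keratin gene, and clusters were named from marker lists that hold no member of the set. The lists do hold other keratins, among them Krt1 and Krt10 for the epidermis, hair shaft keratins for the cortex, and Krt25, Krt27, Krt28, Krt71, Krt72, and Krt73 for the inner root sheath. The 23 clusters gave 15 epithelial groups that reached 50 cells in both libraries: interfollicular epidermis (IFE)-like, upper HF (uHF)-like, ORS-like, sebaceous gland (SG)-like, lower proximal cup (LPC)-like, germinative layer (GL)-like, and IRS-like cells, and clusters 4, 7, 9, 10, 14, 15, 17, and 18, which kept their numbers. Cluster 10 met the medulla list but stayed unnamed because 47.5% of its WT cells and 96.0% of its cKO cells were called doublets. Padi4, the targeted gene, had 98 UMIs in WT and 92 in cKO epithelial cells (log2 ratio -0.12, -0.54 to 0.31), so its counts do not separate the libraries and the second is called by its label. Whether the deleted segment is part of the counted 3′ end was not tested. Xist without any Y-linked UMI was found in 26.7% of WT and 99.7% of cKO epithelial cells (Xist-only cells), while 59.8% of WT and 0 of 7358 cKO cells showed Y-linked UMIs alone (Y-only cells), so genotype cannot be told apart from sex over all cells, and ratios among Xist-only cells are given beside the main ones for the pairs past the limit used below. The libraries shared 14 cell barcodes. Levels are given as CPM, the UMIs of a gene per 1000000 UMIs summed over a group's cells. Free RNA allowed at most 7.81% (WT) and 7.64% (cKO) of epithelial UMIs. Cells named fibroblast-like (48 WT, 26 cKO) gave a second reference level: they held Krt14 at 632 and 418 CPM, Krt5 at 271 and 342 CPM, Krt15 at 65.9 and 96.2 CPM, Krt75 at 2.63 and 0 CPM, and Krt79 at 2.63 and 62.6 CPM. These cells had also passed the tdTomato sort, and their Krt14 and Krt5 exceeded what that share of free RNA could give. The fibroblast-like level is thus a comparison and not a measure of free RNA.

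The 9 genes had distinct distributions. Krt5, Krt14, and Krt15 were high in IFE-like cells, Krt17 was high in ORS-like cells and clusters 17 and 18, Krt75 was concentrated in cluster 18, Krt79 in SG-like cells, and Krt6a and Krt16 were rare. A gene and group pair was counted as high when the group stood at least 2-fold above all other epithelial cells in both libraries, which 22 of 135 member pairs did, against 4.42% of 223275 pairs over all genes. IFE-like cells and cluster 18 were each high for 5 members, where 5.54% and 6.96% of all genes were. ORS-like cells were high for 4, where 7.19% of all genes were. In cluster 18 the 5 were Krt17, Krt75, Krt6a, Krt16, and Krt79. The Krt6a call there rested on 15 WT UMIs and 1 cKO UMI. Its cKO level was 1.21 CPM in cluster 18, against 0.757 CPM over all epithelial cells. The 2.40-fold cKO value that placed Krt6a among the 22 pairs depended on the fraction of a UMI added to both sides. The same group was highest in both libraries for 5 members, Krt15, Krt17, Krt75, Krt16, and Krt79, whereas the highest groups of Krt5, Krt14, and Krt6a differed and Krt6b had no UMI.

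**Figure D1:**
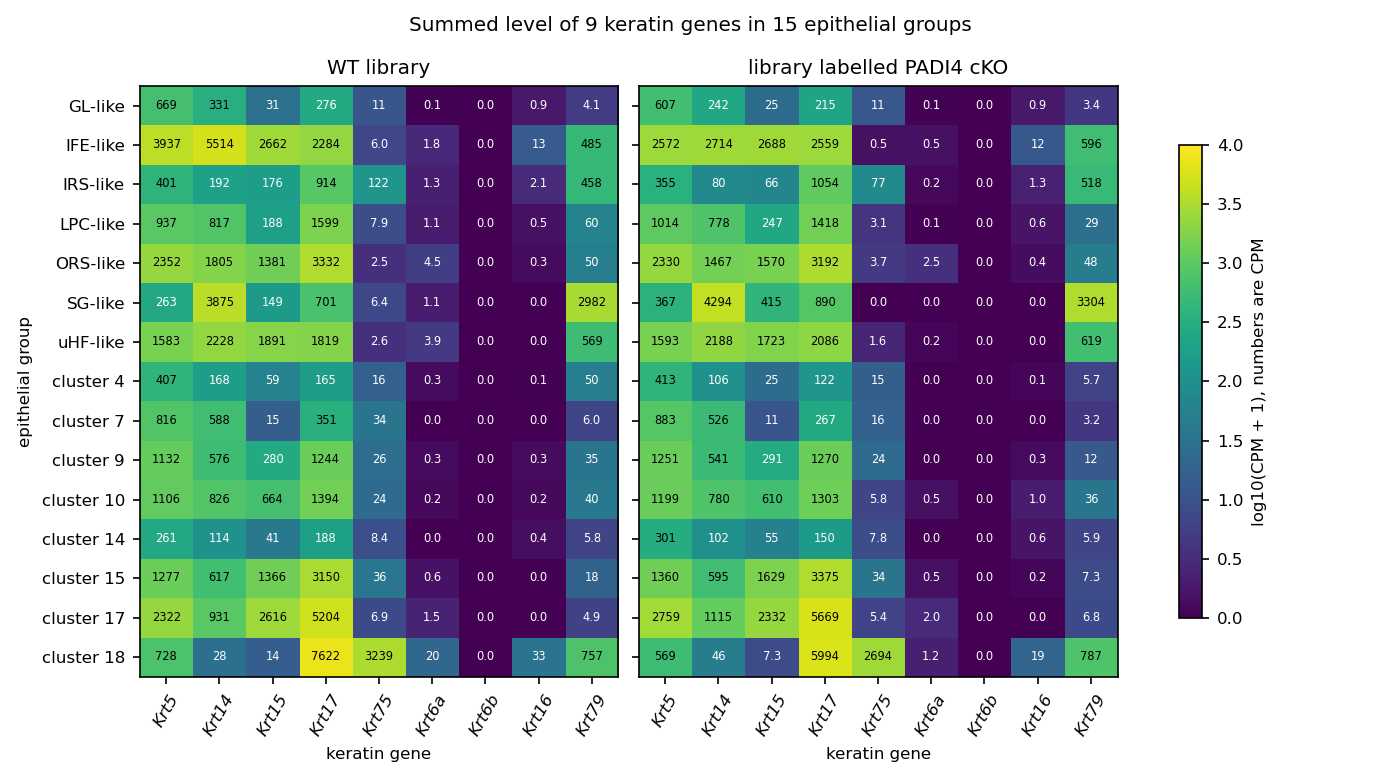
Summed level of each keratin gene (columns) in each of 15 epithelial groups (rows) for the WT library (left) and the library labelled PADI4 cKO (right), with the colour on a log10 scale and the CPM printed in each cell. Krt75 stands at 3239 and 2694 CPM in cluster 18 and at no more than 122 CPM in any other group, and Krt79 is highest in SG-like cells at 2982 and 3304 CPM.

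Krt5 and Krt14, partners in the basal filament, were both high in IFE-like cells but diverged elsewhere. In IFE-like cells Krt5 stood at 3937 CPM (3891 to 3983) in WT and 2572 CPM (2499 to 2646) in cKO, and Krt14 at 5514 CPM (5459 to 5568) and 2714 CPM (2640.0 to 2790). ORS-like cells held Krt5 at 2352 and 2330 CPM, and cluster 17 held it at 2322 and 2759 CPM, so that cluster 17 and not the IFE-like group was highest in the cKO library. SG-like cells were second for Krt14 in WT and highest in cKO, at 3875 CPM (3750 to 4003) and 4294 CPM (4163 to 4428), with at least 1 UMI in all 54 and all 61 cells. The same SG-like cells held Krt5 at only 263 CPM (231.0 to 298) and 367 CPM (330 to 408), close to the fibroblast-like level. At the other end, Krt14 was lowest in cluster 18, at 27.6 CPM (17.1 to 42.2) and 46.0 CPM (32.6 to 63.2), below the fibroblast-like level, while Krt5 remained at 728 and 569 CPM there. Over the 14 pairs of neighbours in the order of groups, intervals overlapped in 3 for Krt14 in each library and in 6 (WT) and 4 (cKO) for Krt5.

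Krt15 followed a basal and upper follicle pattern. It was highest in IFE-like cells (2662 CPM, 2625 to 2700 in WT, and 2688 CPM, 2614 to 2763 in cKO) and nearly as high in cluster 17 (2616 and 2332 CPM), where the WT intervals overlapped. The uHF-like cells (1891 and 1723 CPM), cluster 15 (1366 and 1629 CPM), and ORS-like cells (1381 and 1570.2 CPM) came next. Lower follicle groups held little, with 188 and 247 CPM in LPC-like cells and 31.1 and 24.8 CPM in GL-like cells, the latter below the fibroblast-like level. Among the 5 clusters joined as ORS-like, Krt15 ranged from 811 and 936 CPM in cluster 5 to 2820.4 and 2916 CPM in cluster 12, the only 1 of the 5 with all 6 ORS markers raised. Cluster 12 had the lowest median UMIs of these (8133 and 9557), and its WT and cKO cells were called G1 in 81.0% and 83.1%, against 30.4% and 24.2% in cluster 5, calls that free RNA and depth can touch.

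Krt17 was the most abundant member over all epithelial cells, at 1763 CPM (1755 to 1770) in WT and 1654 CPM (1647 to 1661) in cKO. Cluster 18 was highest (7622 CPM, 7427 to 7820, and 5994 CPM, 5828 to 6163), followed by cluster 17 (5204 and 5669 CPM), while ORS-like cells (3332 and 3192 CPM) and cluster 15 (3150 and 3375 CPM) were close to each other. Of 6 simple-epithelium keratins, which are used by single-layered and embryonic epithelia, 4 (Krt7, Krt8, Krt18, and Krt19) were high by the 2-fold rule in clusters 15 and 17, where 6.12% and 7.46% of all genes were, and Krt7 was also high in IFE-like and ORS-like cells. Krt8, of that family, stood at 110 and 84.1 CPM in cluster 17, its highest group in both libraries. Krt19 was highest in cluster 17 in WT (68.5 CPM) but in cluster 15 in cKO (72.8 CPM). A small ORS-like cluster, cluster 21 with 37 WT and 20 cKO cells with Wfdc18 and Myof among its leading genes, held far more Krt17 than its neighbours, at 11958 CPM (11641 to 12283) and 14271 CPM (13788 to 14767), and also the highest Krt5 of the 5 ORS-like clusters (4415 and 4450.5 CPM). Krt17 was low in GL-like cells (276 and 215 CPM), cluster 14 (188 and 150 CPM), and cluster 4 (165 and 122 CPM).

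**Figure D2:**
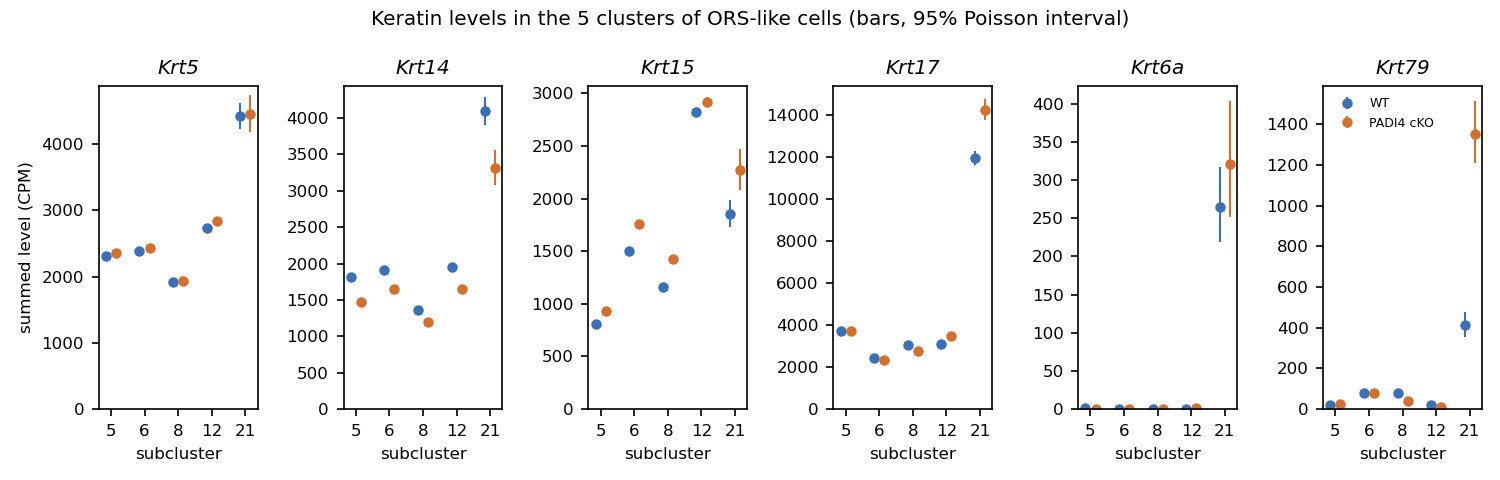
Summed level (CPM, linear axes from 0) of 6 keratin genes in the 5 clusters joined as ORS-like, with points for the WT (blue) and PADI4 cKO (orange) libraries and bars for the 95% Poisson counting interval. Cluster 21 stands apart with Krt17 at 11958 and 14271 CPM and Krt6a at 265 and 321 CPM, and cluster 12 has the highest Krt15.

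Krt75 was highest in cluster 18, a group of 56 WT and 54 cKO cells led by Liph, Rbp2, Wnt11, Tuba8, and Tm4sf1. Its level there was 3239 CPM (3113 to 3370) in WT and 2694 CPM (2583 to 2808) in cKO, 26.6-fold and 35.1-fold above the next group, the IRS-like cells (122 and 76.8 CPM). These 0.700% of WT and 0.734% of cKO epithelial cells held 47.7% and 54.8% of all Krt75 UMIs. Within cluster 18 the cells were uneven. Krt75 exceeded 1000 CPM in 30 of 56 and 32 of 54 cells, and the quartiles of its level per 10000 UMIs were 4.87, 13.3, and 44.0 in WT and 5.08, 13.8, and 44.7 in cKO. Outside cluster 18, most cells above 1000 CPM were IRS-like (14 WT and 10 cKO). Among the cells of cluster 18 above that limit, 18 of 30 and 22 of 32 had no Krt14 UMI. This was not particular to them, since 36 of 56 and 39 of 54 cells of the whole cluster had none. No marker list was drawn up for the companion layer, whose usual markers are members of the set, so cluster 18 has no cell type name. Its other members were Krt17 at the highest level of any group, Krt16 at the highest level of any group, and Krt79 at 757 and 787 CPM, but Krt15 at its lowest (14.4 and 7.26 CPM), under the fibroblast-like level.

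Genes that anchor keratin filaments were unevenly represented in cluster 18. Of 15 such genes, 7 were at least 2-fold higher in cluster 18 than in the other epithelial cells in both libraries, against 6.96% of all genes in that group. These were Dsp, Jup, Pkp1, Pkp3, Dsc2, Dsc3, and Ppl, which belong to or associate with desmosomes, the cell-cell contacts that hold keratin filaments. Most were not particular to cluster 18. Dsp, Jup, Pkp1, Dsc3, and Ppl were also high by this rule in IRS-like cells, and Dsc2 in clusters 7 and 14. Only Pkp3 was high in cluster 18 alone. Dsp, the desmosomal linker of keratins, stood at 1760.2 and 1432 CPM in cluster 18, Jup at 587 and 518 CPM, and Dsc3 at 746 and 611 CPM. Genes of the hemidesmosome, which fixes basal cells to the basement membrane, were mostly low there, with Col17a1 at 0 and 3 UMIs, Itga6 at 6 and 14 UMIs, and Itgb4 at 21.02 and 25.4 CPM, against 68.8 and 65.6 CPM over all epithelial cells. Dst, a linker of keratins to the hemidesmosome, stood at 78.8 and 56.9 CPM in cluster 18 against 353 and 286 CPM over all epithelial cells, whereas Plec, another such linker, was not lower (231 and 203 CPM against 141 and 125 CPM). By contrast IFE-like cells held Col17a1 at 456 and 313 CPM and Itgb4 at 160.0 and 137 CPM.

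Krt6a, Krt6b, and Krt16 were rare in these cells. Krt6a had 248 UMIs in 56 WT cells and 98 UMIs in 23 cKO cells, Krt16 had 184 UMIs in 66 WT cells and 102 UMIs in 57 cKO cells, and Krt6b had 0 UMIs in all 7996 and 7358 cells, which allows a share of cells with a UMI of up to 0.0375% and 0.0408%. Cluster 21 of the ORS-like cells held 119 of the 248 WT and 74 of the 98 cKO UMIs of Krt6a, at 265 CPM (219 to 317) and 321 CPM (252 to 403), in 13 of 37 and 7 of 20 cells. The whole ORS-like group held 140 and 83. After thinning every cell to 2000 UMIs, Krt17 was found in all 20 WT and all 8 cKO cells that kept a Krt6a UMI. Krt16 was highest in cluster 18 (32.8 CPM, 21.3 to 48.5, and 19.4 CPM, 11.1 to 31.5) and next in IFE-like cells (13.2 and 11.8 CPM), where 1 WT cell held 57 of 95 UMIs, and the cKO intervals of these groups overlapped. Of 12 genes of activated epidermis listed beside them, such as the alarmins S100a8 and S100a9 and the small proline-rich Sprr genes, 3 were high by the 2-fold rule in IFE-like cells (5.54% of all genes) and 3 in cluster 18 (6.96%). In IFE-like cells these were Il1rn, Serpinb2, and Stfa1, with Stfa1 at 418 and 146 CPM, and in cluster 18 they were Sprr1a, Il1rn, and Areg. S100a8 was at 0.08 and 0.11 CPM over all epithelial cells.

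Krt79 was highest in SG-like cells, at 2982 CPM (2873 to 3095) in WT and 3304 CPM (3190 to 3422) in cKO, 3.94-fold and 4.20-fold above the next group. Every SG-like cell had at least 1 UMI. Cluster 18 (757 and 787 CPM), uHF-like cells (569 and 619 CPM), IFE-like cells (485 and 596 CPM), and IRS-like cells (458 and 518 CPM) followed. These levels hid different spreads among cells. In uHF-like cells 88.7% and 86.0% of cells had a UMI and the highest 5% of cells held 28.0% and 28.1% of UMIs, whereas in IRS-like cells 26.6% and 33.3% of cells had a UMI and the highest 5% held 79.7% and 61.9%. The share of fibroblast-like cells with a Krt79 UMI was 4.17% and 11.5%, with median depths of 13743.5 and 16668.5 UMIs. GL-like cells were at the low end (4.11 and 3.39 CPM).

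Members made up nearly all keratin mRNA of the outer follicle and a minority in GL-like cells, IRS-like cells, and cluster 14. They accounted for 98.3% and 98.4% of keratin UMIs in ORS-like cells, 98.3% and 98.5% in uHF-like cells, and 91.9% and 92.6% in LPC-like cells, but for 49.2% and 45.5% in GL-like cells, 36.1% and 37.9% in IRS-like cells, and 13.1% and 14.1% in cluster 14, which was led by Dsg4 and Krt35. The member share was 79.8% and 76.3% in cluster 10, which met the medulla list, and 53.1% and 43.8% in cluster 7. In IRS-like cells the IRS keratins took 61.9% and 60.1%, and all keratins together were 0.628% and 0.568% of UMIs. The list that named these cells holds IRS keratins, so this share, and the low member share beside it, follow in part from the naming. Type I members outnumbered type II members 2.71-fold and 2.61-fold in ORS-like cells, 3.85-fold and 4.00-fold in cluster 15, and 1.45-fold and 1.52-fold in SG-like cells. In cluster 18 the ratio was 1.62-fold and 1.498-fold. In cluster 4 the type I members were fewer than the type II members (0.83-fold and 0.59-fold). Over all keratins, however, type I outnumbered type II there by 2.67-fold and 2.68-fold. Each UMI counts 1 transcript end, so these sums do not depend on transcript length.

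**Figure D3:**
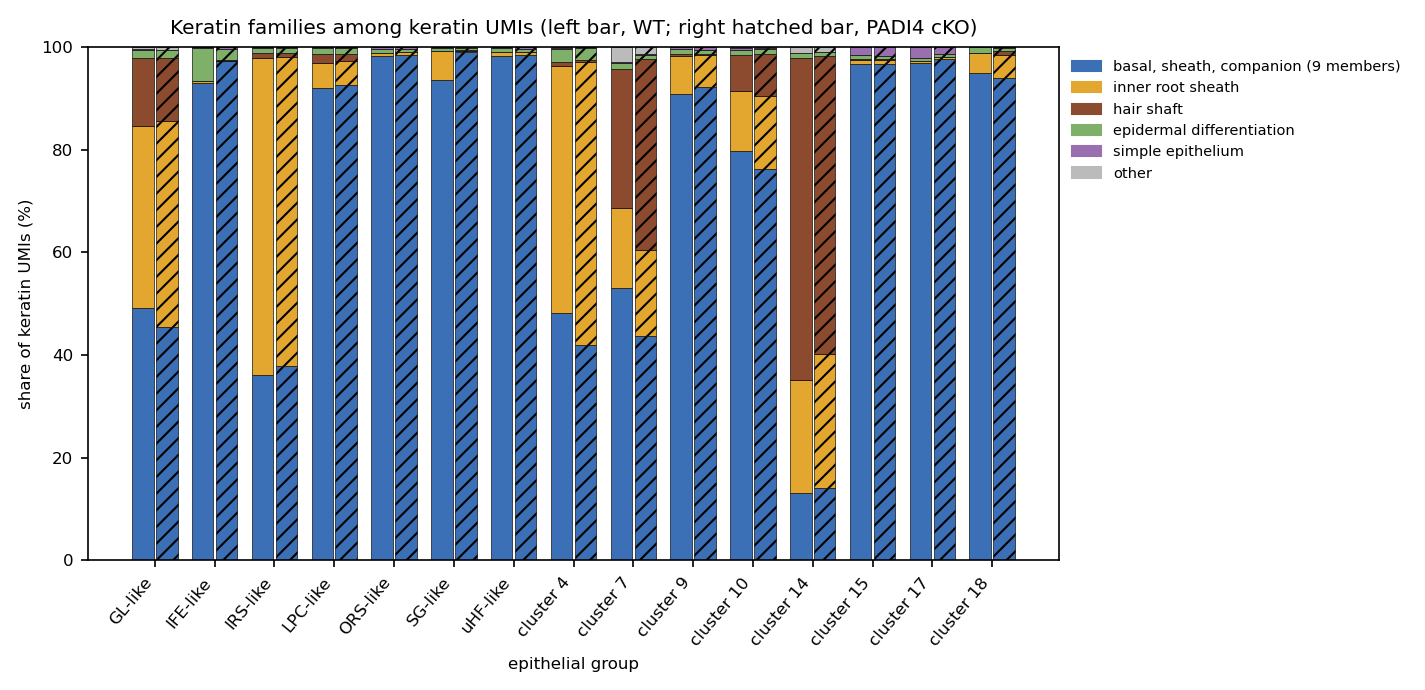
Share of keratin UMIs (%, linear axis) taken by the 9 members and by 5 other families of keratin genes in 15 epithelial groups, with a plain bar for WT and a hatched bar for the library labelled PADI4 cKO. Members take 98.3% and 98.4% in ORS-like cells and 13.1% and 14.1% in cluster 14.

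**Figure D4:**
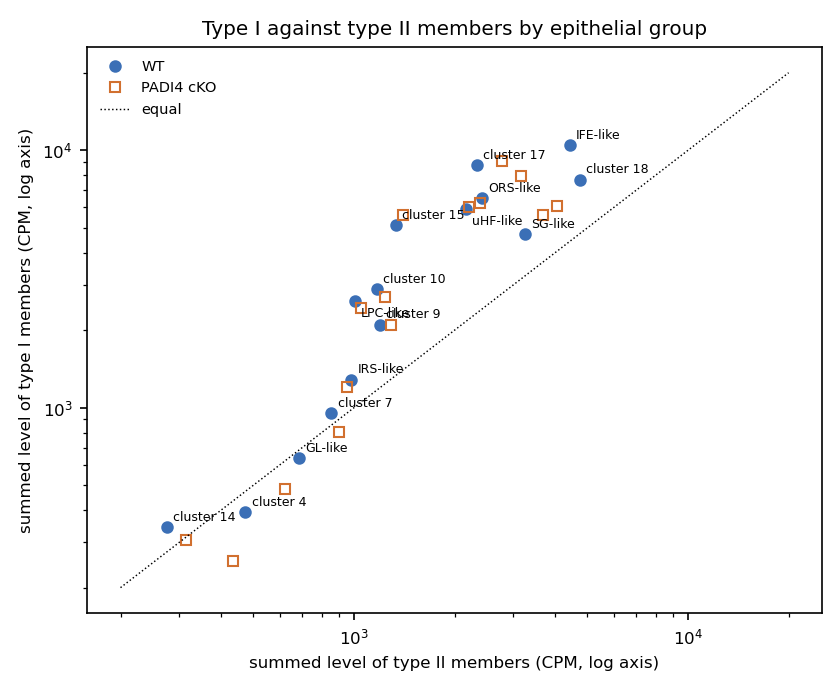
Summed CPM of the 4 type I members against that of the 5 type II members, 1 point per epithelial group and library on log axes, with a dotted line where both are equal. Most groups lie above the line, and cluster 4 and GL-like cells lie below it in both libraries.

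In single cells thinned to 2000 UMIs, Krt5 and Krt14 were often found in the same cells, and Krt14 and Krt15 were found less often in cells with Krt75 than in all cells. Of cells with a Krt14 UMI, 90.04% (89.2 to 90.9) in WT and 89.9% (89.0 to 90.8) in cKO also had Krt5, against 79.3% and 78.8% of all epithelial cells. Of cells with Krt75, 37.7% (31.4 to 44.4) and 27.9% (21.8 to 34.7) had Krt14, against 62.9% and 60.2% of all cells, and 24.6% and 21.8% had Krt15, against 47.8% and 45.3%. Krt5 was found in 68.4% and 69.5% of the Krt75 cells, against 79.3% and 78.8% of all cells. Krt17 was found in 66.2% and 68.5% of the Krt75 cells, close to the 70.1% and 69.3% of all cells.

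Across the 15 groups, the genes whose log levels followed each member most closely in WT were searched among 9590 genes, and their correlations, which rest on 15 groups of shared libraries and depth, are descriptions without a test. Lamb3, a laminin chain of the basement membrane, was first for Krt5 (r = 0.95 in WT and 0.94 in cKO). For Krt15 the first was Sult5a1 (r = 0.95 and 0.92), followed by Barx2, a homeobox factor (r = 0.95 and 0.96). For Krt17 it was Ephb6, an Eph receptor (r = 0.95 and 0.93), followed by Lmna, which encodes the nuclear lamins A and C (r = 0.95 and 0.96). Wnt11, a secreted Wnt ligand, followed Krt75 (r = 0.97 and 0.96), and Cds1, an enzyme of phospholipid synthesis, followed Krt79 (r = 0.94 and 0.95). For Krt14 the first in order was Gm26724 (r = 0.97 and 0.90). Krt14 and Krt75 ran opposite to each other over the groups (r = -0.71 and -0.69).

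Single-cell gates on the marker lists, set after the data were seen, gave a partly different picture. A cell entered a gate when the list's markers stood at least 2-fold above their mean over all epithelial cells and 1.5 times above the next list, which 3773 WT and 3366 cKO cells met. Krt79 was highest in the SG gate (1163 and 1378 CPM) as in the clusters, and Krt14 stood at 2182 and 2558 CPM there. Krt75 was highest in the IFE gate (300.0 and 643 CPM), which takes in cells with Calm4 and Sbsn, a pair of IFE markers also raised in cluster 18. In the ORS gate Krt17 was at 3172 and 3277 CPM and Krt5 at 2623 and 2650.1 CPM. Krt17 was nonetheless highest in the IFE gate (3312 and 4140 CPM), where Krt5 was at 3168 and 1470 CPM. The IFE gate held 496 WT and 220 cKO cells, with 2302 and 2261 UMIs of Krt75. The log2 ratios of cKO over WT in the IFE gate were -1.96 for Krt14, -1.11 for Krt5, -1.12 for Krt15, 0.32 for Krt17, and 1.10 for Krt75. The part of the gate's size and makeup in these ratios was not tested. The Krt15 ratio in this gate differs from its 0.01 in the IFE-like cluster (below).

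Between the libraries, Krt14 and Krt5 were lower in the IFE-like cells of the PADI4 cKO library, while the same genes in ORS-like and uHF-like cells stayed within 0.5 on the log2 scale. Krt17 stayed within 0.5 in all 15 groups over all cells, but among Xist-only cells it was past it in 6 groups, at -0.66 in IFE-like cells, -0.61 in SG-like cells, -0.61 in cluster 4, -0.54 in cluster 7, -0.71 in cluster 18, and 0.60 in cluster 14. Ratios of CPM (cKO over WT) were computed for the 81 of 135 member and group pairs with at least 100 UMIs in both libraries together. Of these, 17 were past 0.5 in log2, 2 above and 15 below, which is 20.99% against 5.19% of 126681 pairs over all genes (2.21% above, 2.97% below). Of the 17, 5 were of Krt75 and 4 of Krt79. By group, 2 of 6 members compared were past 0.5 in IFE-like cells (15.0% of all genes), 3 of 6 in IRS-like cells (3.79%) and in cluster 4 (3.02%), 2 of 6 in LPC-like cells (4.36%), 2 of 7 in ORS-like cells (5.04%), 1 of 5 in SG-like cells (7.92%), 1 of 4 in cluster 7 (5.47%), and 1 of 6 in clusters 9 (3.56%), 10 (4.16%), and 15 (3.43%). No member was past it in GL-like cells (2.69%), uHF-like cells (6.44%), or clusters 14 (3.45%), 17 (7.15%), and 18 (8.41%). Among Xist-only cells 27 of the 81 pairs were past 0.5, 12 above and 15 below, 10 of the 17 stayed past it with the same sign, and 3 of the 17 had the opposite sign. In cluster 14, with 96 WT Xist-only cells, Krt5 (0.57), Krt14 (1.13), and Krt15 (2.004) were past it in these cells, though within it over all cells. So were Krt15 in GL-like cells (0.72, from -0.32) and in LPC-like cells (0.67, from 0.40) and Krt79 in IRS-like cells (0.68, from 0.18). The median over the 81 pairs was -0.08, against -0.01 over all genes.

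**Figure D5:**
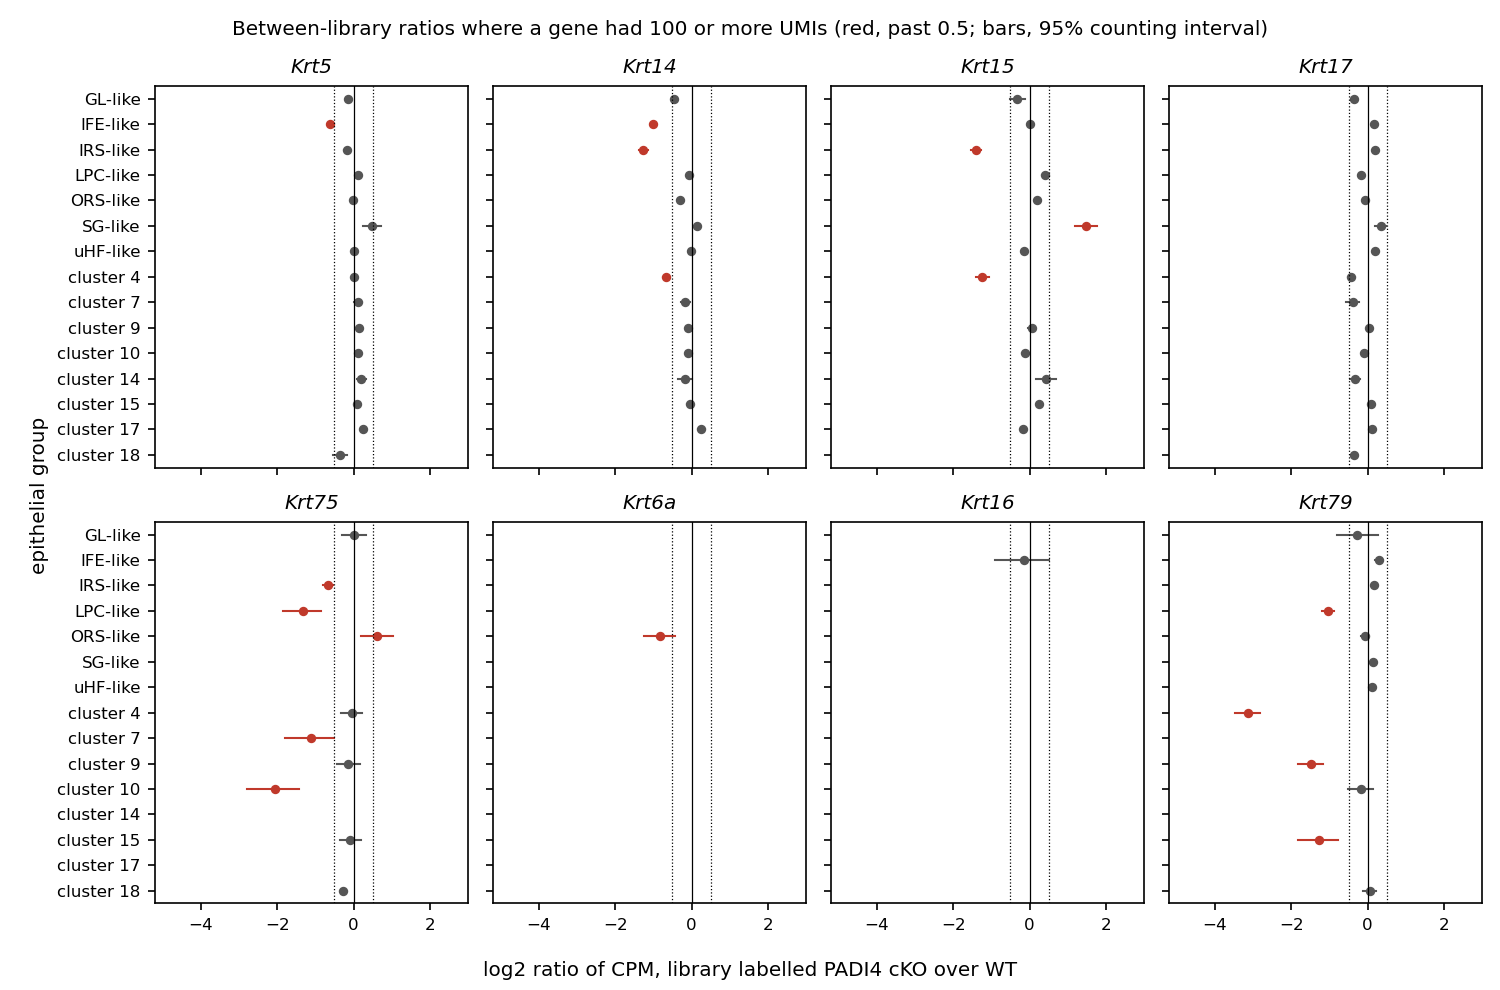
Log2 ratio of CPM, PADI4 cKO library over WT, for each member with at least 100 UMIs in a group (points), with the 95% counting interval as a bar, dotted lines at 0.5 on either side, and red where the ratio is past it. Krt17 has no red point in 15 groups, and Krt14 is below -0.5 in IFE-like cells, IRS-like cells, and cluster 4.

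In IFE-like cells the log2 ratio of Krt14 was -1.02 (-1.06 to -0.98) and that of Krt5 was -0.61 (-0.66 to -0.57), while Krt15 was at 0.01 and Krt17 at 0.16. Krt79, at 0.30 over all cells, was at -0.85 among Xist-only cells. The median cell held 42.3 Krt14 UMIs per 10000 in WT and 20.5 in cKO, and 34.0 and 22.0 Krt5 UMIs per 10000. Among Xist-only cells, with 29 in WT, Krt14 was at -0.78 (-0.86 to -0.70), Krt15 at -0.15, and Krt5 at -0.62 (-0.70 to -0.53). The group itself also differed in size and makeup: it held 542 WT and 147 cKO cells, and Krt1 and Krt10, keratins of the differentiating layer above the basal cells, stood at 468 and 484 CPM in WT and 93.7 and 95.9 CPM in cKO. Of 10 genes induced by tissue dissociation, 8 were above and 1 below in these cells, where 5.57% of all genes were above and 9.43% below, with Fos at 211 and 492 CPM and Jun at 866 and 1622 CPM. The part of these differences, and of how much epidermis remained on the dermal fraction, in the keratin values was not tested. Of the 15 filament-anchor genes, 5 of 14 compared were below in IFE-like cells, among them Col17a1 (-0.54), Dst (-0.57), and Itga6 (-0.60), which all join basal keratins to the basement membrane.

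ORS-like cells, the largest group with 2264 WT and 2280 cKO cells, differed less. Krt14 stood at -0.30 (-0.32 to -0.28), Krt15 at 0.18 (0.17 to 0.20), Krt5 at -0.01, and Krt17 at -0.06, none past 0.5. Krt14 was lower and Krt15 higher in the cKO library in all 5 ORS-like clusters, from -0.31 to -0.19 and from 0.05 to 0.31, clusters that share 1 library each and are not replicates. Krt79, at -0.06 over the joined group, went in opposite directions among them. It stood at -0.92 in cluster 8, -0.83 in cluster 12, and 1.71 in cluster 21, with 0.19 in cluster 5 and -0.01 in cluster 6. Among Xist-only cells Krt14 was at -0.28 and Krt15 at 0.23. Krt6a was past the limit in ORS-like cells (-0.83, -1.24 to -0.43) but in cluster 21, which held most of its UMIs, it stood at 0.28 (-0.16 to 0.71), and cluster 21 had fewer cells in cKO. Among Xist-only ORS-like cells Krt6a was at -0.39 (-1.004 to 0.29). Krt75 stood at 0.61 (0.19 to 1.04) in ORS-like cells on 77 and 124 UMIs, at 2.46 and 3.75 CPM, below what free RNA alone could give (4.86 and 6.16 CPM), and at 0.64 (-0.01 to 1.41) among Xist-only cells. Of the 10 dissociation genes, 5 were above and 0 below in ORS-like cells, where 2.12% of all genes were above and 2.92% below, with a summed level of 2112 and 2890.5 CPM. In uHF-like cells 7 were above and 2 below (3.33% and 3.1% of all genes), and in LPC-like cells 4 were above and 1 below (2.3% and 2.06%). Their part in the keratin values was not tested.

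In SG-like cells Krt15 was higher in cKO, at 149 CPM (125 to 176) in WT and 415 CPM (375 to 458) in cKO, a log2 ratio of 1.47 (1.20 to 1.77), on 140 and 393 UMIs. The highest 5% of SG-like cells held 63.6% and 38.7% of these, and the share of SG-like cells with a Krt15 UMI was 40.7% and 49.2%, against 33.3% and 30.8% in fibroblast-like cells. Krt14 (0.15) and Krt79 (0.15), the main members there, were within 0.5 of a log2 ratio of 0 (at -0.14 and -0.30 among Xist-only cells). Cluster 18 held Krt75 at -0.27 (-0.35 to -0.18) and Krt17 at -0.35 (-0.40 to -0.29), neither past the limit, though among Xist-only cells, with 18 in WT, they were at -0.76 and -0.71. Within the WT library, Krt75 in cluster 18 was at 4569 CPM in the 18 Xist-only and 1907 CPM in the 28 Y-only cells, a log2 ratio of 1.26 (1.13 to 1.39).

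Most of the remaining pairs past 0.5 were at low levels, with their UMIs in a few cells. In IRS-like cells Krt14 was at 192 and 79.9 CPM (-1.26), both below the fibroblast-like level, with 72.5% and 72.8% of its UMIs in the highest 5% of cells, and stood at -0.42 (-0.62 to -0.22) among Xist-only cells. Krt15 there was at 176 and 66.5 CPM (-1.40) with 86.5% and 85.0% in the highest 5%, and among Xist-only cells the ratio was 0.07 (-0.17 to 0.33). Krt75 in IRS-like cells went from 122 to 76.8 CPM (-0.66), and stood at -0.03 (-0.26 to 0.20) among Xist-only cells. In cluster 4 Krt14 (-0.66), Krt15 (-1.24), and Krt79 (-3.13) were lower in cKO, with 96.7% of the 687 WT Krt79 UMIs in the highest 5% of cells. Among Xist-only cells of cluster 4, with 241 in WT, Krt14 was at -0.67 (-0.80 to -0.54) and Krt15 at -1.24 (-1.48 to -1.002). Krt79 was at -3.66 (-4.02 to -3.32) in these cells. After subtraction of the empty-droplet profile Krt14 stood at 0.03 in cluster 4. That subtraction used the free RNA limit over all epithelial cells (7.81% and 7.64%), whereas cluster 4 itself had a limit of 2.29% and 1.85%. It therefore removes too much in cluster 4, and a subtraction at the group's own limit was not run. In LPC-like cells Krt79 was at -1.04 overall and at 1.21 among Xist-only cells, and Krt75 was at -1.33 on 106 and 54 UMIs. Krt79 in clusters 9 (-1.49, on 229 and 114 UMIs) and 15 (-1.27, on 120 and 43 UMIs) and Krt75 in clusters 7 (-1.12, on 86 and 29 UMIs) and 10 (-2.05, on 109 and 23 UMIs) completed the 17. Among Xist-only cells these stood at -0.88, 0.17 (-0.73 to 1.27), -0.27 (-1.25 to 0.87), and -1.03 (-2.35 to 0.83), and Krt75 in LPC-like cells at -0.92 (-1.67 to -0.05). Over all epithelial cells Krt14 was at -0.57 (-0.58 to -0.56), where 5.12% of 14903 genes were past 0.5, and at -0.20 among Xist-only cells. Krt6a (-1.36) and Krt16 (-0.87) were also past it, and among Xist-only cells they were at -0.74 and 0.10.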

How the data were processed

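The authors prepared 10x Chromium 3′ libraries from sorted back skin cells and deposited, for each library, the raw UMI counts of every barcode, made with Cell Ranger 7.1.0 per the file headers and mm10 per the submitters' notes. Other steps of the study (CellBender removal of free RNA among them) were not in these counts. CellBender was not repeated, while the droplet limits below are those of the study. Kept droplets had between 2000 and 60000 UMIs and between 1000 and 8000 genes, with mitochondrial UMIs not above 20% and haemoglobin UMIs not above 1%. Droplets at either extreme of the share of ribosomal protein UMIs were also removed, by the study's percentiles. Both libraries were clustered together in Scanpy 1.11.5 (1000 variable genes without keratin, cell-cycle, Xist, Y-linked, and Padi genes, cell-cycle scores regressed, 50 principal components, 15 neighbours, Leiden resolution 1). A cluster was named when at least 3 markers of a list were 1.5-fold above the other cells. Scrublet doublet calls (threshold 0.198 in both) were kept in, but a cluster with over 50% of such calls in a library stayed unnamed, a rule added after the data were seen, as were the single-cell marker gates. UMIs were summed per group and library. Levels have exact Poisson, shares exact binomial, and ratios conditional binomial 95% intervals, with 0.5 UMI added to both sides of a log2 ratio. Total counts were 143938990 (WT) and 143945294 (cKO) UMIs. Named genes were the 9 members, fixed lists of other keratins, filament-anchor, activation, and dissociation genes, the leading genes of unnamed groups, and the genes most correlated with each member. The members and lists were chosen with earlier results of these data known. Ratios were tested on simulated counts. In the last 500 bases of transcript, Krt14 and Krt17 share 17.2% of 31-base words with other keratin genes and Krt6a shares 15.1% with Gm49428, which had 0 UMIs. Of 90-base words, Krt14 and Krt17 share 0% and Krt6a shares 2.92%, so reads of these stretches are uncertain mainly where they are short.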

Additional observations from a re-analysis of the deposited data

Results flagged for a closer look

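Ratios of Krt15 and Krt75 between the libraries pointed in opposite directions in different epithelial groups, and the difference between groups was not tested, since each genotype has 1 library. Krt15 had a log2 ratio of cKO over WT of 1.47 in SG-like cells, against -1.24 in cluster 4 and -1.40 in IRS-like cells. Krt75 had a log2 ratio of 0.61 in ORS-like cells, against -0.66 in IRS-like cells, -1.12 in cluster 7, -1.33 in LPC-like cells, and -2.05 in cluster 10. The ORS-like levels of Krt75, 2.46 and 3.75 CPM, were below what free RNA alone could give (4.86 and 6.16 CPM). Among Xist-only cells the Krt15 ratio was 2.23 in SG-like cells, -1.24 in cluster 4, and 0.07 in IRS-like cells, and the Krt75 ratio was 0.64 (-0.01 to 1.41) in ORS-like cells, -0.03 in IRS-like cells, -0.27 (-1.25 to 0.87) in cluster 7, -0.92 in LPC-like cells, and -1.03 (-2.35 to 0.83) in cluster 10.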

How the results depend on the processing

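The count of 17 member and group pairs past 0.5 fell to 10 with cells thinned to 2000 UMIs and to 10 with at least 500 UMIs required of a gene, and lay between 12 and 21 in the other settings. Pairs at least 2-fold above the other epithelial cells numbered 22, but 11 at Leiden resolution 0.5 and 10 with relative marker gates, which merge or drop the numbered clusters by construction. Over all genes, 5.19% of pairs were past 0.5, which became 8.19% with at least 50 UMIs and 1.92% with at least 500. The number of members with the same highest group, 5, lay between 5 and 7, but the groups changed: at resolution 0.5 Krt75 was highest in IRS-like and Krt14, Krt15, and Krt79 in uHF-like cells, and with keratins among the variable genes Krt5 was highest in ORS-like, Krt75 in IRS-like, and Krt15 in uHF-like cells in both libraries. Among Xist-only cells the sign turned for 26 of 81 pairs, among them Krt14 in cluster 14 (1.13) and Krt15 in GL-like cells (0.72), and for Krt16 (0.10) and Krt79 (0.13) over all epithelial cells, Krt15 in IRS-like cells (0.072), and Krt79 in LPC-like cells (1.21). It also turned for Krt14 in cluster 4 after subtraction of empty-droplet UMIs (0.027), Krt6a in ORS-like cells with 1000 UMIs per cell (0.038), and Krt79 in cluster 15 with keratins among the variable genes (0.30), where the cause was not tested. The subtraction applied the free RNA limit over all epithelial cells to every group, which is above the limit of cluster 4 itself (2.29% and 1.85%). Of the 17 pairs, 7 stayed past 0.5 with the same sign in every setting that gave a value. Not all settings did: Krt75 in cluster 7, cluster 10, and LPC-like cells had values in 8, 7, and 9 settings, against 14 for Krt14 in IRS-like cells. For these 3 pairs, and for Krt5 and Krt14 in IFE-like cells and Krt15 in SG-like cells, the Xist-only setting had too few cells or UMIs to be among them. The planned marker gates gave no value, because 7387 WT and 7034 cKO cells met several lists. No paired analysis was possible because there is 1 library per genotype and no test.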

Other observations

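A cluster of 43 WT cells with no cKO cell (cluster 11), with Kcnip4, Lsamp, and Meis2 among its leading genes, was left out of the comparisons. It held Krt14 at 5550 CPM, Krt5 at 4504 CPM, Krt15 at 4341 CPM, and Krt17 at 679 CPM, and 34 of its cells were Y-only and 4 Xist-only.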
